A study of Mus musculus with 8 samples.

Results

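The colony-stimulating factor axis is a group of cytokines, their receptors and 1 transcription factor that control how many macrophages and granulocytes a tissue holds. The 8 genes described here are the ligands Csf1 and Il34, the receptors Csf1r, Csf2ra, Csf2rb, Csf2rb2 and Csf3r, and Spi1. They were taken by gene symbol from a fixed list, and all 8 were found among the 18193 genes measured. In the kidney, the colony-stimulating factor 1 receptor is the growth and survival receptor of resident and recruited macrophages, and injured tubule cells are a known source of its ligands. The receptors for the granulocyte-macrophage factor and the granulocyte factor serve monocytes, dendritic cells and neutrophils. PU.1, the product of Spi1, is the transcription factor that commits blood cells to the myeloid lineage and is known to act on the genes of these receptors.

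The cells were GFP-positive cells sorted from digested kidneys of male C57BL/6 mice, 6 months old, that carried the FSP1-eGFP transgene. In this strain GFP follows the promoter of S100a4 (FSP1), which is active in fibroblasts and also in several leukocyte types, so the sort is defined by the reporter and not by 1 cell type. The ischemic group held 5 arrays of cells taken 3 days after the vessels of the left kidney were clamped for 45 minutes and released, with buprenorphine for pain. The normal group held 3 arrays from non-ischemic kidneys, which the labels also call sham. The question is how the sorted cells differ between injured and uninjured kidneys. Per the labels, a portion of the sorted cells was cultured and looked like fibroblasts. The labels count 5 injured kidneys and 3 normal ones and do not say whether the normal kidneys came from separate mice, so p-values for that group may rest on related samples.

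Values are on the log2(intensity + 16) scale, where an intensity of 1 reads 4.09 and where changes of dim genes are understated. A gene stands for its brightest probe set, and probe sets are named by their array identifiers. Levels of different genes come from different probes and are not set against each other.

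Before the results, several arrays need a remark. All mice are labelled male, but Xist, the RNA of the inactive X chromosome, read 11.21 and 9.39 on ischemic 1 and ischemic 2 and 11.01 on normal 1, against 4.49 to 4.96 on the other 5 arrays. The Y-linked gene Eif2s3y read 5.84 on both ischemic 1 and normal 1 and 7.68 to 8.87 on the others, ischemic 2 included. Without those 3 arrays the difference was −1.16 for Csf1, −0.12 for Il34, 0.28 for Csf2rb, 0.26 for Csf2rb2 and 0.77 for Spi1, and the values for the other members stand beside their results. Ischemic 1 had the lowest median correlation with the other arrays (0.753). The highest correlation of any pair across genes (0.976) was between ischemic 5 and normal 3. S100a4 itself averaged 11.97 ± 0.27 (SD, n = 5) on ischemic and 11.61 ± 0.32 (SD, n = 3) on normal arrays.

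None of the 8 genes passed an adjusted p of 0.05 with limma, and across all genes tested the share was 0%. The differences pointed upward in 6 of the 8 and downward in both ligands. Their median was 0.61, while the median over all genes was 0.041 and 54.8% of all genes were positive. At an unadjusted p under 0.05, 0 of 8 were higher, where 2.11% of all genes were, and 1 of 8 (Csf1) was lower, where 5.02% of all genes were. In no member were the groups apart, as they were in 5.33% of all genes. The plot of the 8 genes by array shows this overlap.

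**Figure D1:**
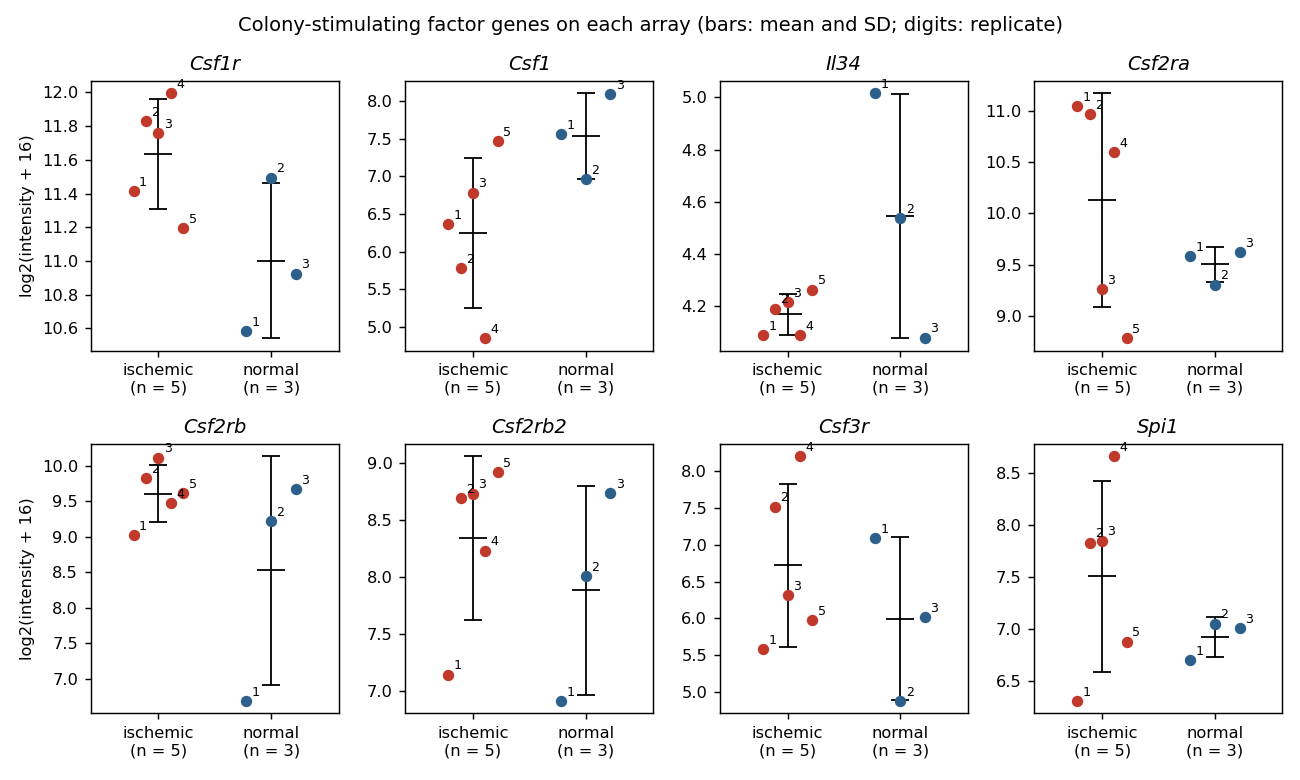
Level of each of the 8 genes on the 5 ischemic and 3 normal arrays, as log2(intensity + 16), with the mean and SD of each group as bars and the replicate number beside each point; each panel has its own vertical range. The groups overlap in every panel, and normal 1 lies far below the other arrays in the panel of Csf2rb, at 6.68.

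Csf1r encodes the receptor tyrosine kinase for both Csf1 and Il34 and is a defining gene of macrophages. It read 11.41, 11.83, 11.76, 12.00 and 11.19 on ischemic arrays 1 to 5, against 10.58, 11.50 and 10.93 on normal arrays 1 to 3. Ischemic 1 and ischemic 5 lay below normal 2, and the other 3 ischemic arrays lay above every normal array. The difference was 0.64 ± 0.29 (SE, n = 5 and 3), with a 95% interval of −0.021 to 1.29, and limma gave an adjusted p of 0.721. The two-sided exact permutation test over all 56 divisions of the arrays gave p = 0.0714, where the smallest p it can give is 0.0179.

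Csf1r has 3 probe sets, and all were higher on average on ischemic arrays. Probe set 1419873_s_at read 10.54, 11.08, 11.03, 10.96 and 10.29 on the ischemic arrays, against 9.93, 10.27 and 9.95 on the normal arrays. There the groups were just apart, by 0.013 between ischemic 5 and normal 2, and the difference was 0.73 ± 0.25 (SE). Probe set 1423593_a_at gave the largest difference of any member probe set, 1.37 ± 0.35 (SE), with 8.91, 9.33, 9.82, 9.42 and 8.76 on the ischemic arrays, against 7.20, 7.94 and 8.51 on the normal arrays. The groups were apart there as well, and its exact permutation p was the smallest possible (0.0179), but limma over all probe sets gave an adjusted p of 0.410.

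Over the 15 probe sets annotated to a single member, 11 had positive differences and 0 passed limma, as did 0% of all probe sets. At an unadjusted p under 0.05, 3 of 15 were higher (2 of Csf1r and 1 of Csf2ra), where 1.99% of all probe sets were. The groups were apart with ischemic higher in 2 of 15, both of Csf1r, where this held for 1.82% of all probe sets. The probe sets of a gene are not independent of each other: the 3 of Csf1r correlated over the 8 arrays at 0.82 to 0.92. The plot of probe set differences shows where probe sets of a gene went together and where they did not.

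**Figure D2:**
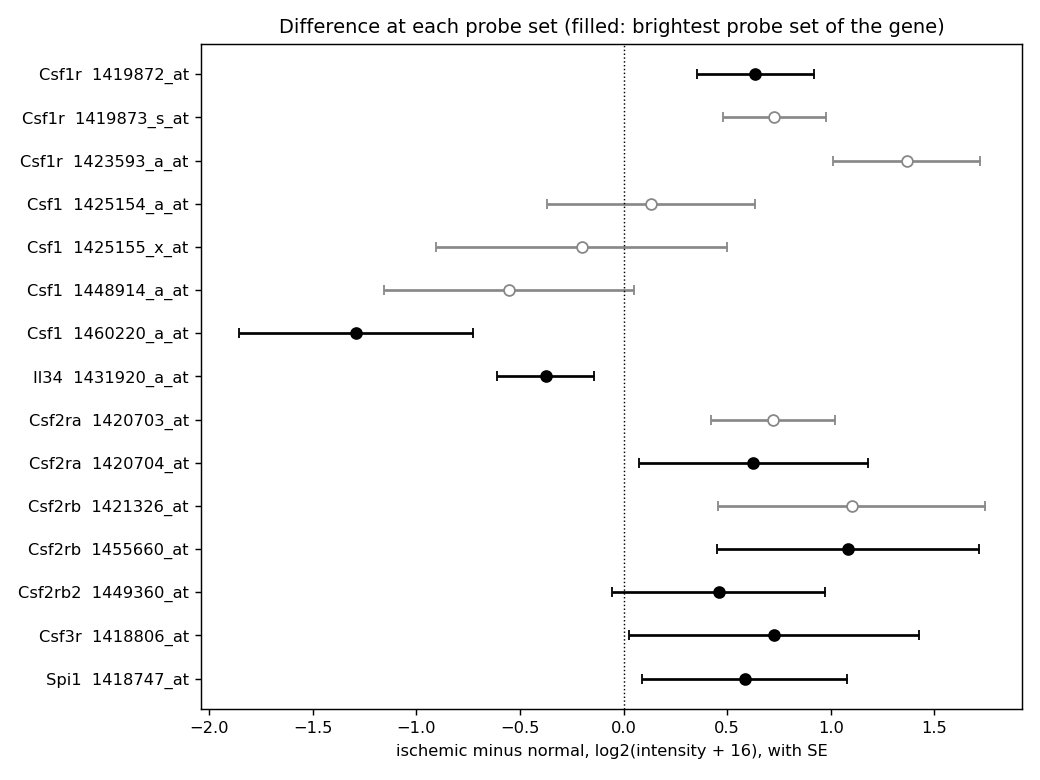
Ischemic minus normal difference with its SE, on the log2(intensity + 16) scale, at each of the 15 probe sets annotated to 1 member; filled points are the brightest probe set of a gene. The 3 probe sets of Csf1r lie between 0.64 and 1.37, while the 4 of Csf1 run from −1.29 to 0.13.

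Markers of macrophages also had positive differences. All 14 measured genes of the macrophage and monocyte list had positive differences, 0 passed limma and their median was 0.86. Their summed intensity was 12617 to 20925 on ischemic arrays and 8994 to 10184 on normal arrays, so the groups did not overlap. No marker of this list was near the floor of the arrays. In a bulk sample more macrophages and more RNA of these genes per cell cannot be told apart, and the part of cell composition in the difference of Csf1r was not tested. Without the 3 arrays of high Xist signal the difference of Csf1r was 0.44, and it was 0.36 after centring each array on its ribosomal protein genes.

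Csf1 encodes the main ligand of this receptor, made by stromal, endothelial and epithelial cells. It read 6.37, 5.78, 6.78, 4.84 and 7.47 on the ischemic arrays, against 7.56, 6.96 and 8.10 on the normal arrays. Ischemic 5 lay above normal 2, and the other 4 ischemic arrays lay below all normal arrays. The difference was −1.29 ± 0.57 (SE, n = 5 and 3), with a 95% interval of −2.58 to −0.00028. The limma p was 0.0500 before adjustment and 0.701 after it, and the exact permutation p was 0.0893. Fitted among all probe sets, the same probe set had a limma p of 0.0506 before adjustment, no longer under 0.05.

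The 4 probe sets of Csf1 did not tell 1 story. Probe set 1448914_a_at, which has the same target accession in the array's annotation as the brightest, read 5.51, 4.68, 6.21, 4.92 and 6.88 on the ischemic arrays, against 6.73, 5.04 and 6.80 on the normal arrays. These 2 probe sets correlated at 0.83 over the arrays, and the difference of the second was −0.55 ± 0.60 (SE). Probe set 1425154_a_at, annotated to another target accession, read 7.16, 6.22, 5.48, 7.34 and 5.61 on the ischemic arrays, against 5.79, 6.83 and 6.06 on the normal arrays, a difference of 0.13 ± 0.50 (SE). It put ischemic 4 highest, where the brightest probe set put ischemic 4 lowest, and the pair correlated at −0.64. The last one, 1425155_x_at, whose suffix marks probes that can bind other transcripts, was at 4.12 to 4.96 on 6 arrays, at 6.69 on ischemic 4 and at 6.45 on normal 2. With the mean of all 4 probe sets the difference of Csf1 was −0.48, so the size given for this gene depends on which probe set stands for it.

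Il34 encodes the other ligand of the receptor, known in kidney from tubule cells. Its only probe set was near the floor, with deposited intensities of 1.0, 2.0, 2.5, 1.0 and 3.1 on the ischemic arrays, against 15.6, 6.3 and 0.9 on the normal arrays. After scaling it read 4.09 to 4.26 on the ischemic arrays, against 5.02, 4.54 and 4.08 on the normal arrays. Normal 3 lay below every ischemic array and normal 1 well above them. The difference was −0.38 ± 0.24 (SE; limma adjusted p = 0.878, exact permutation p = 0.107). It was −1.17 with a pseudocount of 1 and −0.12 with a pseudocount of 64, and −0.14 without normal 1, so no size can be read from it.

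Tubule, endothelial and stromal cells are known sources of these ligands, and their marker lists did not run one way. The kidney tubule list had negative differences in all 10 genes, 0 of them past limma, and its summed intensity was 2575 to 5244 on ischemic arrays and 10833 to 14124 on normal arrays. The endothelial list was negative in all 8 genes, 0 past limma, with sums of 762 to 7134 on ischemic and 1683 to 6137 on normal arrays. The fibroblast list was positive in 10 of 12 genes, 0 past limma, and Lum was near the floor on every array. Its sums were 4323 to 9237 on ischemic and 3271 to 5803 on normal arrays. S100a4, whose promoter drives the reporter, is on that list and among the 10 positive genes. It was the brightest gene of the list, at 11.97 on ischemic and 11.61 on normal arrays, and weighs most in these sums. They therefore follow the gene of the sort and are no separate measure of stromal cells. The brightest Csf1 probe set and the endothelial sum were both highest among ischemic arrays on ischemic 5, with an endothelial sum of 7134 there. The tubule sum was also highest there, at 5244, but Aqp1 alone, at 11.69, weighs most in it. Aqp1, Umod, Aqp2 and Epcam were highest among ischemic arrays on ischemic 5, and the other tubule markers on ischemic 2. Ischemic 4, where the brightest Csf1 probe set was lowest, had the next highest endothelial sum of the ischemic arrays, 2915. The part of these cells in the values of Csf1 and Il34 was not tested.

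The receptor for granulocyte-macrophage colony-stimulating factor pairs a specific alpha chain, Csf2ra, with a shared beta chain, Csf2rb. Mice carry a further beta chain gene, Csf2rb2, a close copy whose product serves interleukin 3. Promoter sequence is shown for the receptor genes because PU.1, encoded by the member Spi1, is known to recognise a purine-rich box. The 250 bases before the transcript start were searched on both strands for GAGGAAG, a core form of that box, in the RefSeq promoter table (GRCm38.p6). Of the members, Csf1, Csf2ra, Csf2rb2 and Csf3r were matched by symbol. The search of members left out promoters on a single chromosome, so a member not named here may still be in that table. The share over all promoters kept that chromosome. A match was found in Csf2ra, Csf2rb2 and Csf3r and none in Csf1, and 10.6% of all 32851 promoters in the table hold one. The 30 bases around each match follow, read along the gene's strand, with the motif or its reverse complement in capitals.
Csf2ra, chr19:61228419-61228448, minus strand: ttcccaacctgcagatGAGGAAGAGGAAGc
Csf2rb2, chr15:78305872-78305901, minus strand: cctctgtgtctgCTTCCTCcagagaagtca
Csf3r, chr4:126024561-126024590, plus strand: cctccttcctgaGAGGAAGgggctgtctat
Csf2ra holds 2 overlapping copies in the last 14 bases before its start, Csf2rb2 has the box on the opposite strand, and Csf3r has it 86 bases before its start. A match of letters is a description of sequence and shows no binding.

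Csf2ra read 11.05, 10.96, 9.26, 10.59 and 8.78 on the ischemic arrays, against 9.58, 9.30 and 9.62 on the normal arrays. The ischemic arrays split around the normal ones, with ischemic 1, 2 and 4 above all of them and ischemic 3 and 5 below all of them. The difference was 0.63 ± 0.55 (SE, n = 5 and 3), with a 95% interval of −0.63 to 1.89 (limma adjusted p = 0.939, exact permutation p = 0.393). The SD was 1.04 within the ischemic group and 0.17 within the normal group.

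The other probe set of Csf2ra, 1420703_at, read 9.60, 9.13, 8.79, 8.88 and 8.58 on the ischemic arrays, against 7.87, 8.19 and 8.76 on the normal arrays, a difference of 0.72 ± 0.30 (SE; limma adjusted p = 0.840, exact permutation p = 0.0536). Only ischemic 5 lay within the normal range there, below normal 3. For the brightest probe set the difference depended on single arrays: it was 0.40 without ischemic 1, 0.96 without ischemic 5, 0.058 with array weights, and 0.082 without the 3 arrays of high Xist signal. Ischemic 1 and 2, where Csf2ra was highest, also had the highest summed intensity of the B cell list, 3653 and 1488. That sum was 170 to 342 on the other ischemic and 225 to 618 on the normal arrays. All 6 measured B cell genes had positive differences, 0 past limma. The T and NK cell sum was 1770 on ischemic 1 and 598 on ischemic 2. It was 93.0 to 367 on the other ischemic and 117 to 1024 on the normal arrays. Both of these ischemic arrays also had high Xist signal. So did normal 1, with a B cell sum of 618 and a T and NK cell sum of 1024. Csf2ra read 9.58 on normal 1, against 9.30 and 9.62 on the other normal arrays. The dendritic cell list, with 4 of 8 genes positive and 0 past limma, summed to 1116 to 1851 on ischemic and 656 to 1792 on normal arrays, with Xcr1 near the floor throughout. The part of any of these cell types in Csf2ra was not tested.

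Csf2rb, the shared beta chain, read 9.03, 9.83, 10.12, 9.47 and 9.62 on the ischemic arrays, against 6.68, 9.22 and 9.68 on the normal arrays. The ischemic arrays lay close together, normal 2 and normal 3 lay among them, and normal 1 was more than 2 units below every other array. The difference was 1.08 ± 0.63 (SE, n = 5 and 3), the largest positive one of the 8 genes, with a 95% interval of −0.36 to 2.52 (limma adjusted p = 0.856, exact permutation p = 0.143). Its other probe set, 1421326_at, read 8.50 to 9.11 on the ischemic arrays, against 5.96, 7.72 and 9.37 on the normal arrays. There normal 1 was again lowest, normal 2 lay below every ischemic array and normal 3 above every one. Without normal 1 the difference of Csf2rb was 0.16, so 1 array carried most of it.

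Csf2rb2 read 7.14, 8.69, 8.73, 8.23 and 8.92 on the ischemic arrays, against 6.91, 8.003 and 8.73 on the normal arrays. The groups covered nearly the same range, with ischemic 1 and normal 1 lowest. The difference was 0.46 ± 0.51 (SE), with a 95% interval of −0.71 to 1.63 (limma adjusted p = 0.954, exact permutation p = 0.482), and it turned to −0.026 without normal 1. A further probe set, 1450200_s_at, is annotated to both beta chains and was used for neither. It read 8.29, 8.47, 8.09, 8.97 and 8.34 on the ischemic arrays, against 7.29, 7.97 and 8.35 on the normal arrays (limma adjusted p = 0.933). Since the beta chains are near copies, signal of one on the probes of the other cannot be told apart here.

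Csf3r encodes the receptor for granulocyte colony-stimulating factor, which drives the making and release of neutrophils. It read 5.58, 7.51, 6.32, 8.21 and 5.97 on the ischemic arrays, against 7.09, 4.87 and 6.01 on the normal arrays. Ischemic 4 and ischemic 2 were highest, normal 1 came next, and normal 2 was lowest. The difference of 0.73 ± 0.70 (SE, n = 5 and 3) had a 95% interval of −0.87 to 2.32 (limma adjusted p = 0.949, exact permutation p = 0.411). It was 0.17 without normal 2, 0.35 without ischemic 4, 1.27 without normal 1 and 1.39 without the 3 arrays of high Xist signal.

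Neutrophil markers were for the most part dim. Of the 11 measured genes of the list, 6 were positive, 0 passed limma, and the median difference was 0.033. Ngp and Prtn3, genes of neutrophil granules, were near the floor on all 8 arrays. S100a9, an abundant neutrophil protein, averaged 7.53 ± 1.43 (SD, n = 5) on ischemic and 8.44 ± 0.99 (SD, n = 3) on normal arrays. The summed intensity of the list was 153 to 1362 on ischemic and 265 to 1092 on normal arrays. It was 376 on ischemic 4, where Csf3r was highest, and 1362 on ischemic 3, where Csf3r read 6.32. On ischemic 3 S100a9 and S100a8 read 9.48 and 8.69 and weigh most in that sum, so it mainly follows those genes. Markers of mast cells, basophils and eosinophils summed to 66.7 to 155 on ischemic and 62.1 to 119 on normal arrays. Of these 9 genes, 5 were positive, 0 passed limma and 0 reached the median level of all genes. Epx, Fcer1a and Mcpt4 were near the floor on all arrays. Markers of T and NK cells summed to 93.0 to 1770 on ischemic and 117 to 1024 on normal arrays. Of the 7 measured, 5 were positive and 0 passed limma, and Ncr1 and Nkg7 were near the floor on all arrays. The part of neutrophils in the level of Csf3r was not tested.

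Spi1 encodes PU.1, which macrophages, dendritic cells, B cells and granulocytes all use at different doses. It read 6.31, 7.83, 7.85, 8.66 and 6.88 on the ischemic arrays, against 6.70, 7.05 and 7.01 on the normal arrays. The normal arrays lay within a narrow range, and ischemic 2, 3 and 4 lay above it while ischemic 1 lay below it. The difference was 0.58 ± 0.50 (SE, n = 5 and 3), with a 95% interval of −0.55 to 1.72 (limma adjusted p = 0.933, exact permutation p = 0.321). Leaving out ischemic 4 gave 0.30 and leaving out ischemic 1 gave 0.88. The SD was 0.92 within the ischemic group and 0.19 within the normal group. The plot of differences with each array left out shows that 5 of the 6 genes with positive differences, all but Csf2rb2, stayed above 0 in all 8 such fits.

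**Figure D3:**
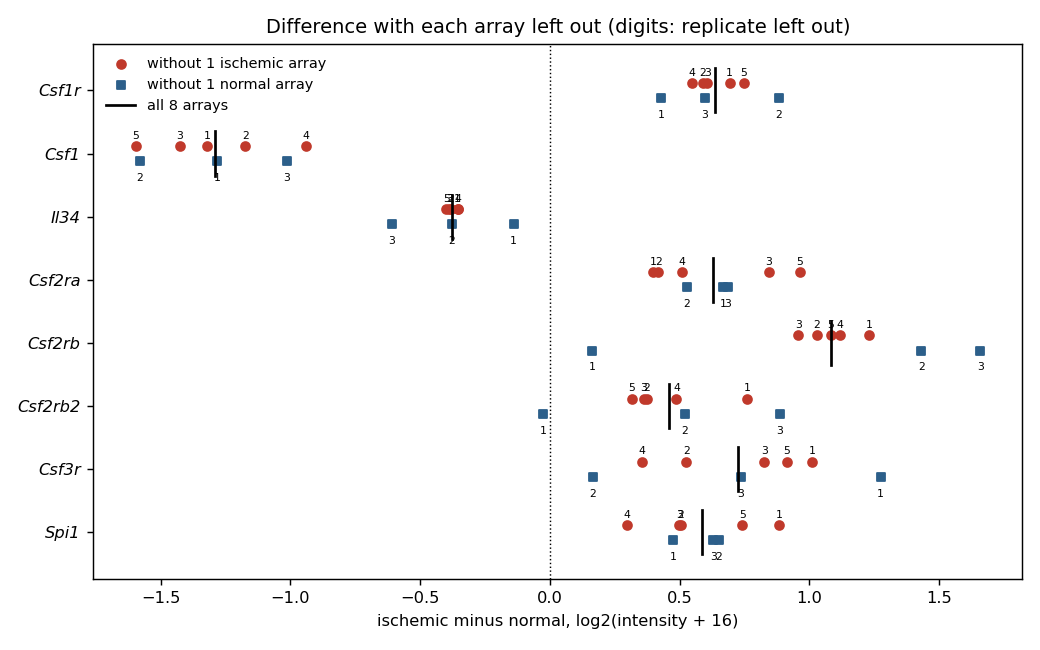
Ischemic minus normal difference of each gene, on the log2(intensity + 16) scale, with all 8 arrays (bars) and with 1 ischemic (circles) or 1 normal array (squares) left out; digits give the replicate left out. Csf2rb went to 0.16 and Csf2rb2 to −0.026 without normal 1, and Csf3r went to 0.17 without normal 2.

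The members were also compared with each other over the 8 arrays, in 28 pairs with correlations from −0.86 to 0.83. Both groups are pooled there, so r and its p mix the difference between groups with variation within them. The beta chains Csf2rb and Csf2rb2 had Pearson's r = 0.83 (two-sided exact permutation p = 0.00092, adjusted over the 28 pairs 0.0257). Spearman's rho for that pair was 0.79 (exact permutation p = 0.0279, adjusted 0.261). Leaving out normal 1 and ischemic 3, the arrays farthest from the median of Csf2rb, gave r = 0.92. Over the ischemic arrays alone r was 0.85. The beta chains were the only pair that passed after adjustment, with Pearson's r and not with Spearman's rho, and they are near copies.

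Csf1r and Csf1, receptor and ligand, ran in opposite directions over the arrays, with r = −0.84 (exact permutation p = 0.00873, adjusted 0.122) and rho = −0.90 (exact permutation p = 0.00456, adjusted 0.128). Without normal 1 and ischemic 4 the correlation was −0.87, and over the ischemic arrays alone it was −0.84. The correlation also depended on the Csf1 probe set. Over all 8 arrays Csf1r correlated at −0.84 and −0.78 with the 2 probe sets of the first target accession, and at 0.43 and 0.41 with the other 2. Csf3r and Spi1 had r = 0.70 (exact permutation p = 0.0539, adjusted 0.199) and rho = 0.55 (exact permutation p = 0.171, adjusted 0.751). Without ischemic 4 and ischemic 2, r was 0.090, so that relation rested on those arrays. Csf1r and Spi1 had r = 0.74 (exact permutation p = 0.0339, adjusted 0.199) and rho = 0.81 (exact permutation p = 0.0218, adjusted 0.261). Their r was 0.63 without normal 1 and ischemic 4. Over the ischemic arrays alone r was 0.90 for Csf3r and Spi1 and 0.89 for Csf1r and Spi1.

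**Figure D4:**
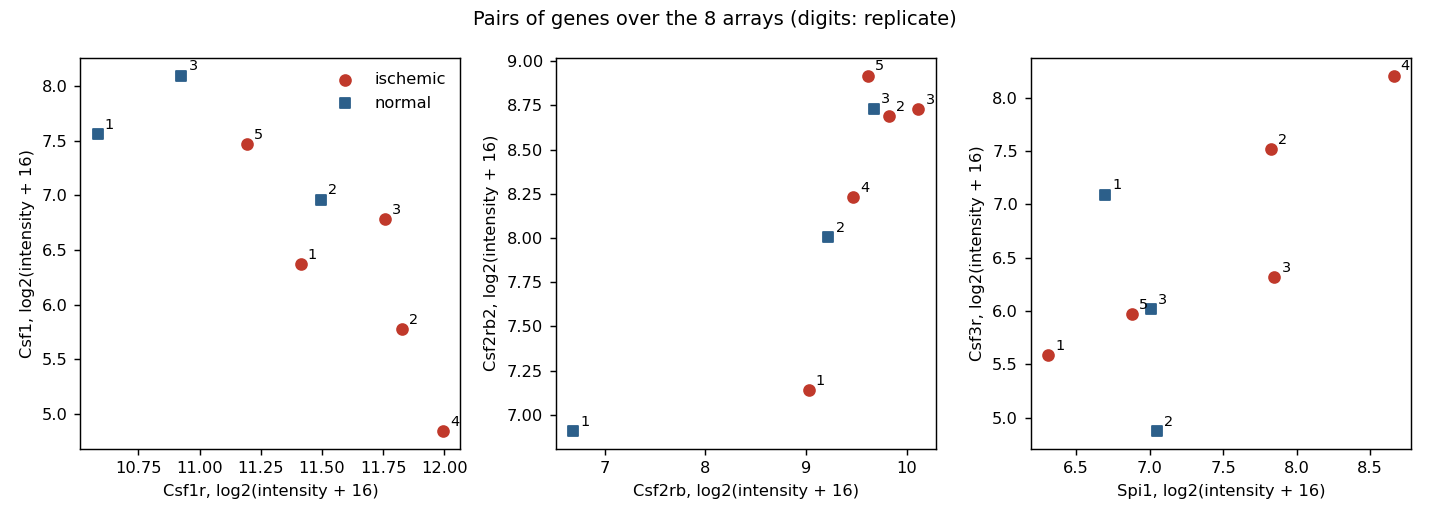
Levels of 3 pairs of genes on the 8 arrays, each as log2(intensity + 16), with ischemic arrays as circles, normal arrays as squares and the replicate number beside each point. Csf1r and Csf1 run in opposite directions (r = −0.84), the beta chains run together (r = 0.83), and in the pair of Spi1 and Csf3r ischemic 4 is highest on both axes.

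Genes whose levels over the 8 arrays were most like those of a member were taken from the 9096 others at or above the median level, as a description. For Csf1r these were Gypc, Vcpip1, Apobec1, Septin3 and Slc9a7, with r from 0.95 to 0.96. For Csf3r they were Eif4e3, Coro7, Orc3, A930006K02Rik and Pde7a, with r from 0.96 to 0.97. For Spi1 they were Prelid1, Tmem51, Mcts1, Hmga2-ps1 and Tradd, with r from 0.97 to 0.99. None of these 15 genes passed limma.

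Other ligands, partner chains and signalling genes of these receptors were read from a list of 42 genes, of which 38 were measured. Of these, 29 had positive differences, 0 passed limma, and the median was 0.31, against 0.041 for all genes. At an unadjusted p under 0.05, 5 of 38 were higher, where 2.11% of all genes were, and 1 of 38 was lower, where 5.02% of all genes were. Dok1, an adaptor that dampens kinase signals, had the lowest p and read 6.31, 6.03, 6.61, 6.42 and 5.53 on the ischemic arrays, against 4.96, 5.18 and 5.48 on the normal arrays. All ischemic arrays lay above all normal ones, by 0.053 at the closest, with a difference of 0.98 ± 0.29 (SE; limma adjusted p = 0.351). Cbl was the other gene of the list with its groups apart, by 0.16, and 5.33% of all genes had groups apart.

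Ptpn6, the phosphatase SHP-1 of blood cells, read 8.95, 9.36, 9.48, 9.09 and 8.34 on the ischemic arrays, against 7.49, 7.79 and 8.55 on the normal arrays, with a difference of 1.10 ± 0.34 (SE; limma adjusted p = 0.392). Only ischemic 5 overlapped with the normal group. Cish, a feedback inhibitor induced by STAT5, read 5.40, 6.26, 6.32, 4.83 and 5.96 on the ischemic arrays, against 7.48, 8.43 and 6.30 on the normal arrays. Its difference was −1.65 ± 0.52 (SE; limma adjusted p = 0.412), and only ischemic 3 reached the normal range. Stat3, a transcription factor downstream of the granulocyte factor, differed by 0.10 ± 0.23 (SE), the adaptor Gab2 by −0.22 ± 0.46 and Socs3, another feedback inhibitor, by 0.85 ± 0.36, none past limma.

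Ligands on that list differed in direction. Kitl, the stem cell factor that binds the related receptor Kit, read 4.80, 4.35, 6.63, 6.58 and 8.97 on the ischemic arrays, against 6.64, 8.88 and 8.61 on the normal arrays. Ischemic 5 was highest of all, the other 4 ischemic arrays lay below every normal array, and the difference was −1.78 ± 1.03 (SE; limma adjusted p = 0.855). Il5 read 8.10 on ischemic 1 and 4.49 to 5.22 on the other ischemic arrays, against 4.60 to 5.71 on the normal arrays, a difference of 0.45 ± 0.79 (SE). Csf2, the granulocyte-macrophage factor, read 7.53, 8.24, 7.23, 9.73 and 7.77 on the ischemic arrays, against 6.69, 8.74 and 8.64 on the normal arrays, a difference of 0.078 ± 0.66 (SE). Csf3, the granulocyte factor, was near the floor on all arrays, at 4.18 to 4.79 on the ischemic arrays and 4.39 to 4.67 on the normal arrays. Il3ra, the alpha chain for interleukin 3, was near the floor as well.

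Myeloid transcription factors that act beside PU.1 were read from a list of 25 genes, of which 23 were measured. Of these, 16 had positive differences, 0 passed limma, and the median was 0.56, against 0.041 for all genes. At an unadjusted p under 0.05, 3 of 23 were higher, where 2.11% of all genes were. Those 3 were Fli1, an ETS family factor, at 0.98 ± 0.34 (SE; limma adjusted p = 0.515), Zeb2, which macrophages need to keep their identity, at 0.77 ± 0.31 (limma adjusted p = 0.633), and Runx1, at 0.89 ± 0.37 (limma adjusted p = 0.672). In each the groups overlapped. The differences of Egr1 and Cebpb, factors of monocyte and macrophage differentiation, were −0.24 ± 0.34 and 0.59 ± 0.33 (SE). Without the 3 arrays of high Xist signal the medians of the signalling and transcription factor lists were 0.16 and 0.24, and they were 0.076 and 0.22 after centring each array on its ribosomal protein genes.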

How the data were processed

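The values deposited by the authors are linear intensities of 45101 probe sets on 8 Affymetrix arrays. Their software, background correction and scaling are not given by the sources used here. Per the labels' protocols, RNA was isolated with Qiagen miRNeasy, amplified with NuGEN WT-Ovation Pico and labelled with NuGEN FL-Ovation. Groups came from the sample titles.

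From these, log2(intensity + 16) was computed and quantile normalized over the 45037 probe sets that are no controls. Of these, 34945 carried a single gene symbol in GEO's platform annotation, which gave 18193 genes, with no filter. Groups were compared with limma 3.58.1 in R 4.3.3 (eBayes, Benjamini-Hochberg over all genes or all probe sets) and, for single values, a two-sided exact permutation test. The fit was tested on simulated data with known changes. The simulation drew independent noise for each gene and array, so it checks the computation and not how the fit handles differences between arrays. "Near the floor" means a deposited intensity under 20. Summed intensities add the normalized values of a list, less the pseudocount. Promoters came from RefSeq. Figures used matplotlib 3.10.9. Members and lists were chosen with earlier results of these data known. For each list the genes of lowest p and highest level were named by a fixed rule. Kitl, Il5, Csf2, Csf3, Il3ra, Cbl, S100a9 and the marker genes near the floor were named after their values were seen. Alternatives covered scaling, pseudocount, filter, probe set, variance model, array weights, pairing and arrays. The number of arrays limits precision.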

Additional observations from a re-analysis of the deposited data

How the results depend on the processing

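None of the 8 genes passed limma under any alternative, and all kept their direction except Csf2rb2, which was −0.026 without normal 1. The count of genes past the threshold among all tested, 0 with the settings reported, was 153 after centring each array on its ribosomal protein genes, 31 with an intensity trend, 15 among genes above the 40th percentile of level, 5 with array weights, 2 with the mean of all probe sets and 1 with a pseudocount of 1. It ran from 0 to 113 with 1 array left out, the 113 without normal 3. Centring on ribosomal protein genes moved the median of all genes to −0.13. The labels name no pairing of the arrays. Deviations of equal replicate numbers correlated at 0.16, −0.088 and 0.10, and those of unequal numbers at −0.28 to 0.31. So few values cannot decide whether arrays were paired. With a replicate block 0 genes passed, and Csf1r was at 0.66 and Csf1 at −1.23. Among further probe sets, 1425154_a_at of Csf1 turned to −0.12 with that centring, −0.30 with array weights and −0.31 without the arrays of high Xist signal, and ran from −0.11 to 0.44 with 1 array left out. Probe set 1425155_x_at of Csf1 ran from −0.69 to 0.48 with 1 array left out, and 1448914_a_at was at 0.082 without the arrays of high Xist signal. Probe set 1449360_at, which stands for Csf2rb2, ran from −0.026 to 0.88 with 1 array left out. Probe set and list alternatives were added after the data were seen. The cause of these shifts was not tested.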
